A study of Homo sapiens with 12 samples.

Results

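The 45 genes described here act at the start of S phase. They were listed by symbol and comprise 11 genes of origin licensing and the MCM helicase, 7 of helicase activation, 6 of polymerases and primase, 7 of the sliding clamp and Okazaki fragment maturation, 3 of single-strand binding, 8 regulators of G1/S or targets of E2F and 3 inhibitors of cyclin-dependent kinases (CDKs). All 45 were found among the 58381 genes counted, and all 45 passed the filter on low counts, as did 15836 genes in total. RNA was measured in 12 libraries from Hs578T and MDA-MB-231, which are human triple-negative breast cancer cell lines. Each line gave 3 libraries of CD44 WT and 3 of CD44 KO cells. Cells of every group had been transduced with an inducible Cas9 and selected with puromycin. The KO plates received guides against exons 1 and 5 of *CD44*, a receptor for hyaluronan, and the WT plates received transfection reagent without guides. Live CD29+ cells were then sorted as CD44-positive (WT) or CD44-negative (KO). They were grown as populations, not as clones of 1 cell, and were starved in low serum before RNA was taken. Whether the 3 libraries of each group were separate cultures is not stated, so p-values here measure the spread between these libraries, which may be technical. In MDA-MB-231, 1 CD44 WT library could not be given a replicate number and is called unnumbered below.

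In G1, the origin recognition complex, CDC6 and CDT1 load the MCM2 to MCM7 helicase onto origins of replication. At the G1/S boundary, cyclin E with CDK2 and the kinase CDC7 with DBF4 convert the loaded helicase into an active one. They do so by recruiting CDC45 and the GINS complex. Primers are then made with primase, and polymerases extend them on a clamp of PCNA. Most of these genes are transcribed under E2F factors, which are held back by the retinoblastoma protein until D-type cyclins inactivate it, and p21, p27 and p18 act as brakes by inhibiting CDKs.

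Since E2F factors bind near the start sites of many of these genes, their promoters are shown first. A window from 250 bases before to 50 bases after the start was given by RefSeq (GRCh38.p14) for 38 of the 45 genes, in 50 windows. *MCM4*, *MCM5*, *RPA2*, *RPA3*, *GINS4*, *CCNE2* and *CCND1* had no window. The windows were searched on both strands for TTTCCCGC, TTTGGCGC, TTTGCCGC and TTTCGCGC, which are 4 common forms of the E2F motif. At least 1 of them was found in 22 windows (44%) of 21 genes, against 4.7% of the windows of all genes tested and 3.3% of all 34943 windows. In contrast, the CHR motif of mitotic genes (TTTGAA or TTTAAA) was found in 12% of the windows of the 45 genes and in 78.6% of those of 33 mitotic genes with a window, against 17.4% for all genes tested. The motifs overlap where TTTGGCGC or TTTCGCGC runs into GAAA, as in *MCM6* and *MCM2*, so the same letters can match on both strands. A match describes the letters only. The following sites, each 30 bases of the strand of the gene from 5′ to 3′ with the motif in capitals, belong to genes whose values are given in full below or to the helicase (*MCM3*, *MCM6*).
GINS1 chr20:25407667-25407696: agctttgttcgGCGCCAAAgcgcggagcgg
LIG1 chr19:48170440-48170469: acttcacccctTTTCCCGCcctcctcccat
E2F2 chr1:23531257-23531286: gcggcacgacgTTTGGCGCtaaaaaaaaaa
E2F1 chr20:33686387-33686416: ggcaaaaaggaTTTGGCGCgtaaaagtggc
PCNA chr20:5126663-5126692: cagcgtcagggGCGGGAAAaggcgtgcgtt
MCM2 chr3:127598402-127598431: cgtgaaccactTTTCGCGCgaaacctggtt
MCM3 chr6:52284728-52284757: agttcggaagtTTTCGCGCcggggtggagt
MCM6 chr2:135876577-135876606: agggctttgcaTTTGGCGCgaaatcccttt

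The first base of the motif, counted from the start site, lay at -42 in *E2F2*, -20 in *E2F1*, -114 in *LIG1*, -59 in *PCNA* and 6 in *GINS1*. The 21 genes with a motif had medians of -0.28 (Hs578T) and 0.08 (MDA-MB-231) for the log2 fold change, KO over WT. The 17 genes with a window but no match had medians of -0.19 and 0.05, and both sets spanned overlapping ranges in each line. *MCM10* and *GINS1* are among the genes whose changes had opposite signs in the lines, described below, and their upstream sequence from 5′ to 3′ is given on the strand of the gene. Neither stretch of 250 bases held one of the 4 forms, which says nothing about binding.
GINS1 chr20:25407423-25407672: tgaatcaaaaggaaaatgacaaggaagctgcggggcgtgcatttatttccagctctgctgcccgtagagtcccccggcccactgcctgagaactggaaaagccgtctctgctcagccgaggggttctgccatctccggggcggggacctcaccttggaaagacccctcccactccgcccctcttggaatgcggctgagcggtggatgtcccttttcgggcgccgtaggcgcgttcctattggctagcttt
MCM10 chr10:13161308-13161557: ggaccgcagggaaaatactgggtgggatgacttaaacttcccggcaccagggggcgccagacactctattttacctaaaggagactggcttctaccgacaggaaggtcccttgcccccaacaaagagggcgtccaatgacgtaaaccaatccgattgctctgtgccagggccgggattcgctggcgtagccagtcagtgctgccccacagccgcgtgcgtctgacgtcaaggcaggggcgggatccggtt

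Total counts were between 10257586 and 19725543 per library, and the 45 genes received between 51588 and 131503 of them, with at least 109 counts for every gene in every library, so none of these genes was near the limit of detection. Values are given as CPM, counts scaled to the size of the library, with TMM factors that correct for library composition. *CD44* fell from 507 ± 17.6 to 27.3 ± 2.06 CPM in Hs578T and, in MDA-MB-231, 362 ± 1.70 CPM in WT compared with 34.2 ± 5.40 CPM in KO (SD, n = 3 each), as the labels state. Both lines expressed *VIM* and lacked *PGR* (0 counts in 12 libraries), whereas *ESR1* and *ERBB2* passed the low-count filter. Together these 3 receptor genes summed to 77.3 to 83.4 CPM in CD44 WT and 87.2 to 102 CPM in CD44 KO Hs578T. The same sum was 64.8 to 88.3 CPM in CD44 WT and 57.4 to 64.2 CPM in CD44 KO MDA-MB-231. In Hs578T *EPCAM*, *CDH1* and *KRT19* were below 1 CPM in both groups. There the 8 epithelial genes together, mostly *KRT8* and *KRT18*, summed to 976 to 1009 CPM in CD44 WT and 890.1 to 944 CPM in CD44 KO. In MDA-MB-231 this sum was 1218 to 1522 CPM in CD44 WT and 978 to 1131 CPM in CD44 KO. The 7 mesenchymal genes summed to 8852 to 10301 CPM in CD44 WT and 9284 to 11506 CPM in CD44 KO Hs578T, and to 5101 to 5352 CPM in CD44 WT and 6652 to 7697 CPM in CD44 KO MDA-MB-231. *VIM* rose in both lines (0.38 and 0.43 on the log2 scale) and *TWIST1* in Hs578T (4.07). Of the 7 mesenchymal genes, 5 were higher and 2 lower in CD44 KO Hs578T, and 4 were higher and 2 lower in CD44 KO MDA-MB-231. Among the epithelial genes, *ESRP1* rose (0.97) and *CLDN4* fell (-1.35) in Hs578T, and 0 were called in MDA-MB-231. Of the markers of other cells, the 6 leukocyte genes summed to 1.11 to 1.48 CPM in Hs578T CD44 WT and 4.07 to 5.37 CPM in Hs578T CD44 KO, where only *PTPRC* passed the low-count filter. The 4 endothelial genes summed to 11.9 to 14.3 CPM in Hs578T CD44 WT and 16.5 to 17 CPM in CD44 KO. In MDA-MB-231, the endothelial sum was 6.17 to 9.71 CPM in CD44 WT and 14.1 to 15.6 CPM in CD44 KO, and the leukocyte sum stayed between 0.953 and 1.58 CPM in all 6 libraries. At these low levels, *PTPRC* rose in Hs578T (3.33 on the log2 scale) and the endothelial gene *KDR* in both lines (4.04 and 1.00). The part of these markers in the results was not tested. Also, 2 libraries of Hs578T stood at the ends for the 45 genes. CD44 KO replicate 2 had the lowest value of the line for 34 of them and CD44 WT replicate 3 the highest for 30, so results that rest on them are also given without them.

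In Hs578T, replication and G1/S genes were lower in CD44 KO as a group, by small amounts. The 45 genes summed to 4413, 4624 and 4894 CPM in the CD44 WT libraries and to 4143, 3675 and 4400 CPM in the CD44 KO libraries. The lowest CD44 WT library and the highest CD44 KO library were thus almost level. By gene, 39 were lower and 6 higher in CD44 KO (38 and 7 with RLE size factors), and the median log2 fold change was -0.25 (0.842-fold), against -0.00 over all genes tested, of which 50.2% were lower. In RNA from bulk cultures, fewer cells in S phase and less RNA per cell cannot be told apart. Of the 45 genes, 2 passed an adjusted p of 0.01 (edgeR quasi-likelihood test, Benjamini-Hochberg adjustment over all genes), *ORC1* and *GINS1*, both lower. Across all genes 7.51% passed, 3.86% lower and 3.64% higher, and a share near this background is not a result about the 45 genes. The changes were shared rather than large: 25 were lower and 2 higher at an unadjusted p under 0.05, against 14.3% lower and 13.1% higher over all genes, 27.4% together. In 26 of the 45 the WT and KO libraries did not overlap (23 below, 3 above), against 37.3% of all genes (18.6% below, 18.7% above). Without CD44 KO replicate 2, the median was -0.16, with 37 genes lower, 14 at an unadjusted p under 0.05 and 0 called (3.84% of all genes). Without CD44 WT replicate 3 the median was -0.22, with 36 lower, 17 at an unadjusted p under 0.05 and 0 called (7.75% of all genes). The counts of 14 and 17 are of either direction. The share of all genes at that p was not computed without these libraries, so the counts have no background to be read against.

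In MDA-MB-231, the same genes leaned the other way. They summed to 6788, 6393 and 6299 CPM in the CD44 WT libraries (replicates 1 and 3 and unnumbered) and to 7307, 6965 and 6680 CPM in the CD44 KO libraries. Replicate 1 of CD44 WT lay within the KO range and the others below it. Of the 45 genes, 32 were higher and 13 lower in CD44 KO (34 and 11 with RLE size factors or library size alone), and the median log2 fold change was 0.10 (1.07-fold), against -0.01 over all genes. At an adjusted p of 0.01, 4 genes rose, *CDKN1A*, *MCM10*, *GINS4* and *LIG1*, and 0 fell, against 4.62% of all genes called, 1.97% higher and 2.65% lower. At an unadjusted p under 0.05, 10 were higher and 2 lower, against 10.6% higher and 12.9% lower over all genes, 23.4% together. The WT and KO libraries did not overlap for 15 of the 45 (14 above, 1 below), against 25.5% of all genes (11.8% above, 13.7% below). Without CD44 WT replicate 1, 39 were higher and 6 lower, and without CD44 KO replicate 1, 27 were higher and 18 lower with a median of 0.05.

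**Figure D1:**
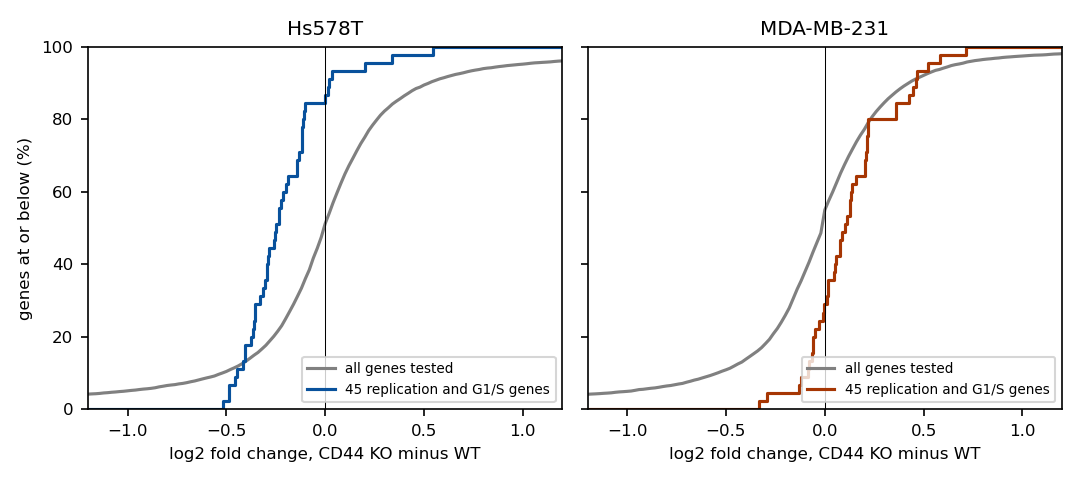
Cumulative share of genes (vertical axis, percent) at or below each log2 fold change, KO over WT (horizontal axis), in Hs578T (left) and MDA-MB-231 (right), for the 45 genes (coloured) and all 15836 genes tested (grey). The coloured curve lies left of the grey one in Hs578T over most of its range, with a median of -0.25, and mostly right of it in MDA-MB-231, with a median of 0.10.

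**Figure D2:**
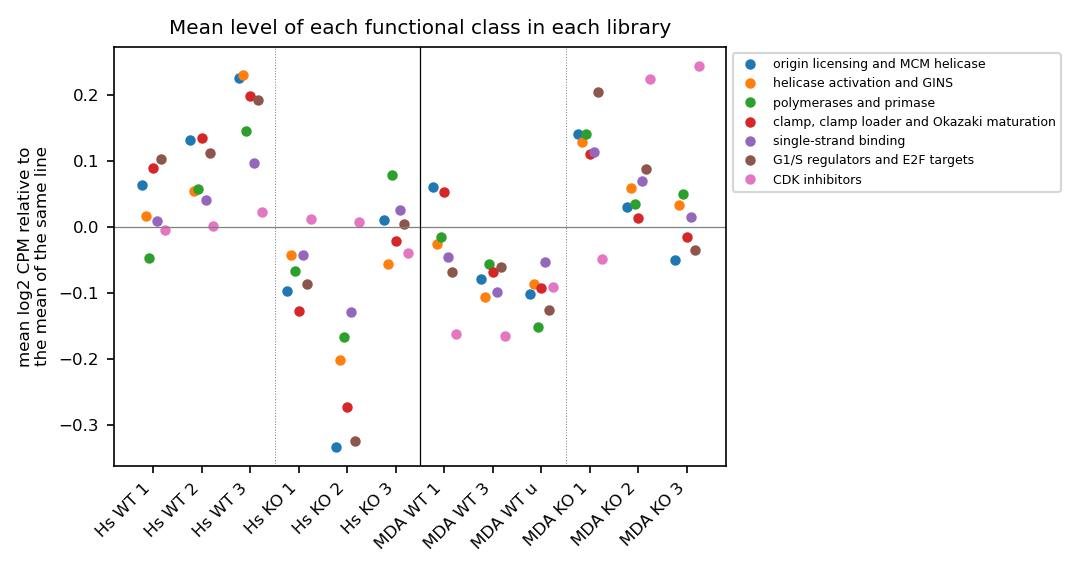
Mean log2 CPM of each functional class in each library (points, coloured by class), relative to the mean of the 6 libraries of the same line. In Hs578T, CD44 KO replicate 2 is the lowest library for every class but the CDK inhibitors, and CD44 WT replicate 3 is the highest for every class. In MDA-MB-231, CD44 KO replicate 1 is the highest library for the 6 classes other than the CDK inhibitors.

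All 11 genes of licensing and the MCM helicase were lower in CD44 KO Hs578T, with log2 fold changes from -0.52 (*ORC1*) to -0.12 (*ORC6*, which differed by -0.06 in MDA-MB-231) and a median of -0.25. *ORC1*, the largest subunit of the origin recognition complex, read 56.2, 58.2 and 59.6 CPM in CD44 WT and 42.0, 33.2 and 46.6 CPM in CD44 KO Hs578T. The KO libraries lay below all WT libraries, and the log2 fold change was -0.52 ± 0.12 (SE, adjusted p = 0.00746). The call was lost, with adjusted p up to 0.0431, when any WT library or KO replicate 1 or 2 of Hs578T was left out, and also for WT replicate 3 or KO replicate 2 of MDA-MB-231, which enter through the shared estimate of spread. In MDA-MB-231, *ORC1* was 53.3, 47.4 and 47.6 CPM in CD44 WT and 63.9, 53.9 and 54.8 CPM in CD44 KO, without overlap but by a log2 fold change of only 0.22 ± 0.12 (adjusted p = 0.282).

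The 6 helicase subunits MCM2 to MCM7 had log2 fold changes between -0.33 (*MCM4*, adjusted p = 0.0222) and -0.14 (*MCM2*) in Hs578T and between -0.05 and 0.11 in MDA-MB-231. *MCM2* read 207, 225 and 237 CPM in CD44 WT and 208, 172 and 225 CPM in CD44 KO Hs578T. It read 214, 206 and 197 CPM in CD44 WT and 214, 207 and 195 CPM in CD44 KO MDA-MB-231. The groups overlapped in both lines, and the sign of *MCM2* in MDA-MB-231 (-0.00 ± 0.10) turned with the normalization, as did that of *MCM5*. *MCM10*, which is not a helicase subunit but binds the helicase and is needed to start unwinding, had larger differences than these. It read 94.4, 98.8 and 96.4 CPM in CD44 WT and 160.5, 140 and 133 CPM in CD44 KO MDA-MB-231. All KO libraries were above all WT libraries, and the log2 fold change was 0.58 ± 0.11 (adjusted p = 0.00257). Leaving out WT replicate 3 or KO replicate 1 of MDA-MB-231 ended this call (highest adjusted p = 0.0146). In Hs578T, *MCM10* read 63.1, 62.8 and 68.4 CPM in CD44 WT and 53.8, 43.7 and 59.2 CPM in CD44 KO, below WT in all 3 (log2 fold change -0.31 ± 0.11, adjusted p = 0.0701).

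Among the genes of helicase activation, the subunits of GINS were all lower in CD44 KO Hs578T. In MDA-MB-231, *GINS1*, *GINS3* and *GINS4* were higher and *GINS2* was lower. Differences between the subunits were not tested. *GINS1* read 40.2, 39.3 and 42.7 CPM in CD44 WT and 29.9, 29.1 and 30.8 CPM in CD44 KO Hs578T, with an SD of 1.78 CPM in WT and 0.845 CPM in KO (log2 fold change -0.44 ± 0.09, adjusted p = 0.00355). The call was lost whichever of the 6 Hs578T libraries was left out (highest adjusted p = 0.0217). The MDA-MB-231 values of *GINS1* were 46.6, 46.8 and 49.8 CPM in CD44 WT and 65.1, 62.2 and 56.2 CPM in CD44 KO, again without overlap but upward (0.36 ± 0.09, adjusted p = 0.0159). *GINS4* was 26.8, 29.9 and 34.0 CPM in CD44 WT and 27.4, 27.4 and 28.8 CPM in CD44 KO Hs578T, where the groups overlapped. In MDA-MB-231 it read 63.4, 79.6 and 73.4 CPM in CD44 WT and 101, 97.1 and 101 CPM in CD44 KO. That was a log2 fold change of 0.47 ± 0.10 (adjusted p = 0.00794), a call kept only without Hs578T CD44 WT replicate 1 or 3 or MDA-MB-231 CD44 WT replicate 3 among the 12 fits that left out a library (adjusted p up to 0.0279). *GINS2* and *GINS3* passed no test, with -0.14 and -0.30 in Hs578T and -0.12 and 0.08 in MDA-MB-231. *CDC45*, the partner of GINS in the active helicase, differed by 0.03 and 0.05, and *CDC7* and *DBF4* by -0.26 and -0.20 in Hs578T and 0.01 and 0.14 in MDA-MB-231.

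**Figure D3:**
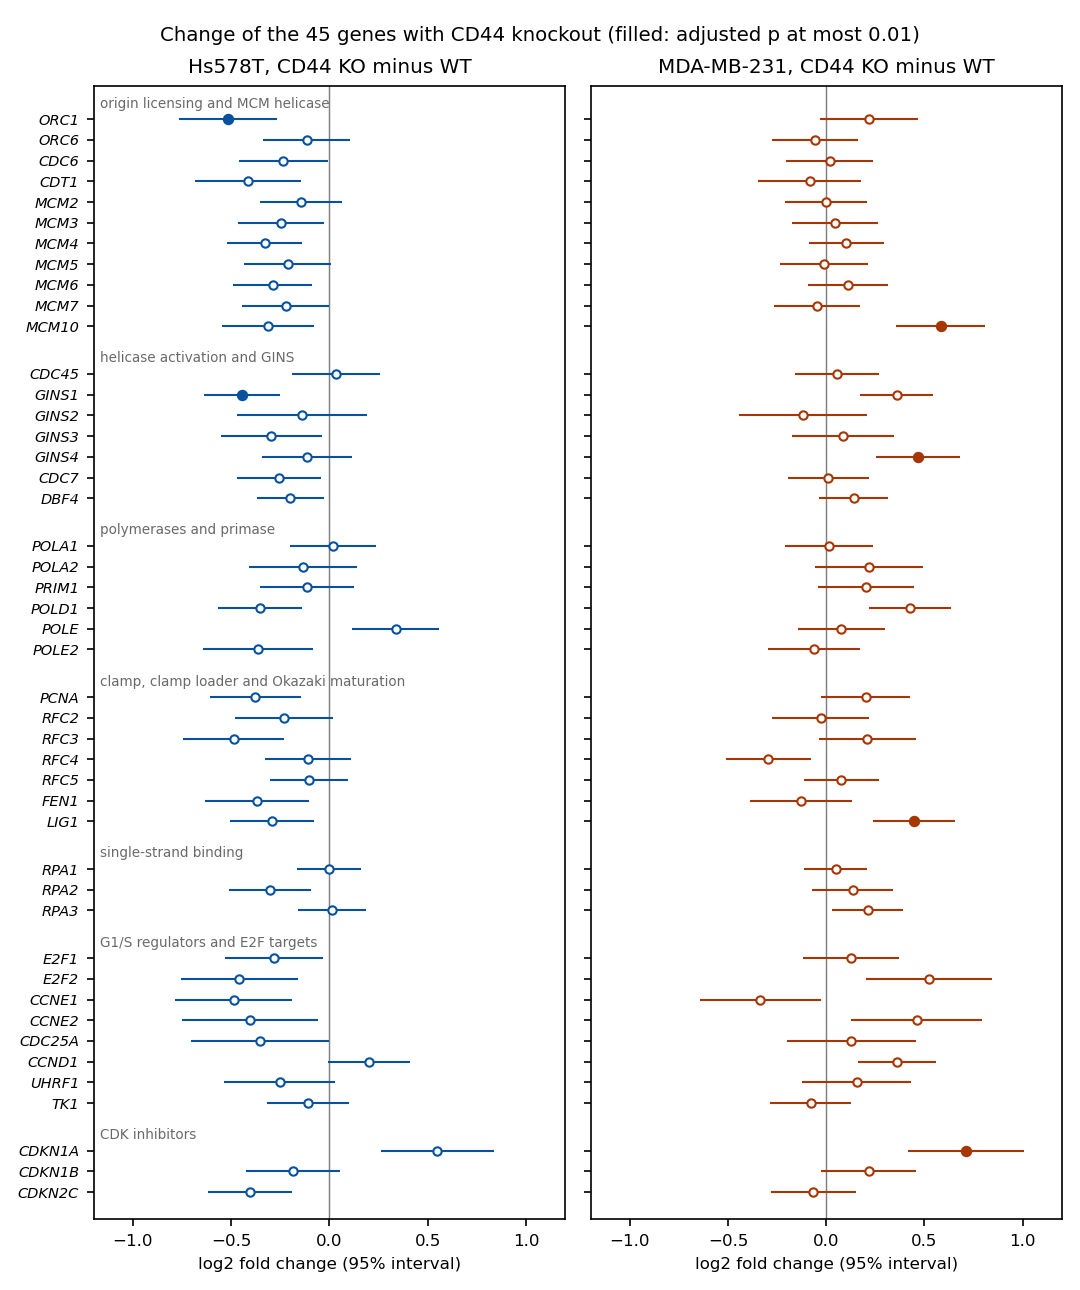
Log2 fold change with CD44 KO (horizontal axis) for each of the 45 genes in Hs578T (left) and MDA-MB-231 (right), by functional class, with 95% intervals. Filled points passed an adjusted p of 0.01, which were *ORC1* and *GINS1* in Hs578T and *MCM10*, *GINS4*, *LIG1* and *CDKN1A* in MDA-MB-231. Most points lie left of 0 in Hs578T, and the points of MDA-MB-231 scatter around and above 0.

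The polymerase genes were mixed. *POLD1*, the catalytic subunit of polymerase delta, read 86.1, 85.6 and 84.1 CPM in CD44 WT and 67.0, 58.9 and 74.5 CPM in CD44 KO Hs578T (log2 fold change -0.35 ± 0.10, adjusted p = 0.0263). In MDA-MB-231 it read 101, 100.4 and 83.4 CPM in CD44 WT and 127, 124 and 133 CPM in CD44 KO (0.43 ± 0.10, adjusted p = 0.0118). Groups did not overlap in either line, and neither change passed an adjusted p of 0.01 in edgeR with TMM factors, but DESeq2 called both, and edgeR with RLE size factors called the one in MDA-MB-231. *POLE*, the catalytic subunit of polymerase epsilon, was instead higher in CD44 KO Hs578T (111 ± 11.6 against 140 ± 12.9 CPM, 0.34 ± 0.10, adjusted p = 0.0424), while its partner *POLE2* was lower (13.2 ± 0.810 against 10.2 ± 1.23 CPM, -0.36 ± 0.13, adjusted p = 0.0822). In MDA-MB-231 these were 0.08 and -0.06. *POLA1*, *POLA2* and *PRIM1*, which make the primer, had unadjusted p-values of at least 0.0954 in both lines.

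All 7 genes of the clamp, its loader and Okazaki fragment maturation were lower in CD44 KO Hs578T (median -0.29), 4 of them at an unadjusted p under 0.05, and 0 passed. DESeq2 and edgeR with the line fitted alone called *RFC3*, edgeR without a filter on low counts called *RFC3* and *PCNA*, and *PCNA* was also called with blocks of consecutive library numbers. *PCNA*, the sliding clamp, read 154, 170 and 206 CPM in CD44 WT and 144, 121 and 144 CPM in CD44 KO Hs578T (-0.38 ± 0.11, adjusted p = 0.0292). In MDA-MB-231 it read 336, 313 and 291 CPM in CD44 WT and 380, 349 and 352 CPM in CD44 KO (0.20 ± 0.11, adjusted p = 0.278). The groups did not overlap in either line, with KO below WT in Hs578T and above it in MDA-MB-231. *LIG1*, the ligase that seals Okazaki fragments, read 61.2, 60.1 and 58.7 CPM in CD44 WT and 46.4, 44.1 and 56.7 CPM in CD44 KO Hs578T (-0.29 ± 0.10, adjusted p = 0.066). In MDA-MB-231 it rose from 83.6, 80.5 and 72.4 CPM to 102, 108 and 112 CPM (0.45 ± 0.10, adjusted p = 0.00882). Of the 12 fits that left out a library, 3 kept that call, those without Hs578T CD44 KO replicate 2 or 3 or MDA-MB-231 CD44 WT replicate 1, and adjusted p reached 0.0381. Among the subunits of the clamp loader, *RFC3* had the largest difference in Hs578T (50.1 ± 3.94 against 35.8 ± 2.70 CPM, -0.49 ± 0.12, adjusted p = 0.0121). *RFC2* differed by -0.23 and *RFC5* by -0.10 in Hs578T, and in MDA-MB-231 by -0.03 and 0.08. *RFC4* was the gene of the 45 whose KO libraries all lay below the WT libraries in MDA-MB-231 (118 ± 16.8 against 96.1 ± 6.80 CPM, -0.29 ± 0.10, adjusted p = 0.0875). In the single-strand binding complex, *RPA1* differed by -0.00 in Hs578T and 0.05 in MDA-MB-231, *RPA2* by -0.30 (adjusted p = 0.0529) and 0.13, and *RPA3* by 0.01 and 0.21.

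Of the 45 genes, *E2F2*, an activating E2F factor, had the largest difference in its change between the lines. It read 44.7, 50.8 and 48.7 CPM in CD44 WT and 37.4, 27.4 and 40.4 CPM in CD44 KO Hs578T (-0.46 ± 0.14, adjusted p = 0.0386). It read 15.9, 17.2 and 12.7 CPM in CD44 WT and 23.6, 21.5 and 20.9 CPM in CD44 KO MDA-MB-231 (0.52 ± 0.15, adjusted p = 0.0391). Again the groups did not overlap and the order was opposite. *E2F1* overlapped between groups in both lines. It read 56.0, 62.4 and 65.8 CPM in CD44 WT and 49.1, 45.6 and 56.7 CPM in CD44 KO Hs578T (-0.28 ± 0.12, adjusted p = 0.127). It read 98.1, 86.6 and 72.2 CPM in CD44 WT and 97.3, 89.3 and 94.1 CPM in CD44 KO MDA-MB-231 (0.13 ± 0.11, adjusted p = 0.553). *UHRF1*, which maintains DNA methylation after replication, differed by -0.25 in Hs578T but 0.16 in MDA-MB-231, neither of which passed the test.

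The cyclins differed among themselves. *CCNE2* read 29.1, 25.4 and 29.5 CPM in CD44 WT and 21.0, 17.7 and 25.1 CPM in CD44 KO Hs578T (-0.40 ± 0.16, adjusted p = 0.118). It read 26.5, 39.1 and 40.3 CPM in CD44 WT and 50.5, 52.4 and 42.4 CPM in CD44 KO MDA-MB-231 (0.46 ± 0.16, adjusted p = 0.0826). *CCNE1*, the other E-type cyclin, was lower in both lines, at 21.8 ± 2.34 against 15.6 ± 0.0929 CPM in Hs578T (-0.49 ± 0.14, adjusted p = 0.0292) and 16.7 ± 1.40 against 13.2 ± 2.60 CPM in MDA-MB-231 (-0.33 ± 0.14, adjusted p = 0.172). *CCND1*, the D-type cyclin that acts on the retinoblastoma protein, was higher in both. It read 62.6, 58.7 and 61.8 CPM in CD44 WT and 74.8, 69.2 and 66.8 CPM in CD44 KO Hs578T (0.20 ± 0.10, adjusted p = 0.195). It read 519, 660.0 and 653 CPM in CD44 WT and 781, 817 and 753 CPM in CD44 KO MDA-MB-231 (0.36 ± 0.09, adjusted p = 0.0225), and the groups did not overlap in either line.

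Among the CDK inhibitors, *CDKN1A*, which encodes p21 and is a target of p53, was higher with CD44 KO in either line. It read 73.2, 63.9 and 70.7 CPM in CD44 WT and 110.4, 104 and 89.4 CPM in CD44 KO Hs578T, where the log2 fold change of 0.55 ± 0.13 had an adjusted p of 0.0122 (DESeq2 called it). In MDA-MB-231 it rose from 44.7, 39.0 and 46.1 CPM to 55.1, 85.4 and 71.5 CPM (0.71 ± 0.14, adjusted p = 0.004). That call was lost when WT replicate 3 or KO replicate 2 or 3 of MDA-MB-231 was left out, with an adjusted p of at most 0.0279. *CDKN1A* had the largest positive log2 fold change of the 45 genes in each line, and no difference of its change between the lines was detectable with 3 libraries a group (difference -0.17, 95% interval -0.58 to 0.25). *CDKN2C*, which encodes p18, read 70.8, 78.4 and 87.1 CPM in CD44 WT and 58.1, 61.0 and 59.3 CPM in CD44 KO Hs578T (-0.40 ± 0.10, adjusted p = 0.0121). In MDA-MB-231 it read 52.2, 55.6 and 47.9 CPM in CD44 WT and 47.0, 47.0 and 55.0 CPM in CD44 KO (-0.07 ± 0.10). *CDKN1B*, which encodes p27, read 33.1, 34.6 and 29.5 CPM in CD44 WT and 27.7, 27.7 and 30.1 CPM in CD44 KO Hs578T (-0.19 ± 0.11). It read 21.9, 23.4 and 26.8 CPM in CD44 WT and 25, 28.5 and 30.3 CPM in CD44 KO MDA-MB-231 (0.22 ± 0.11). Its groups overlapped in both lines.

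**Figure D4:**
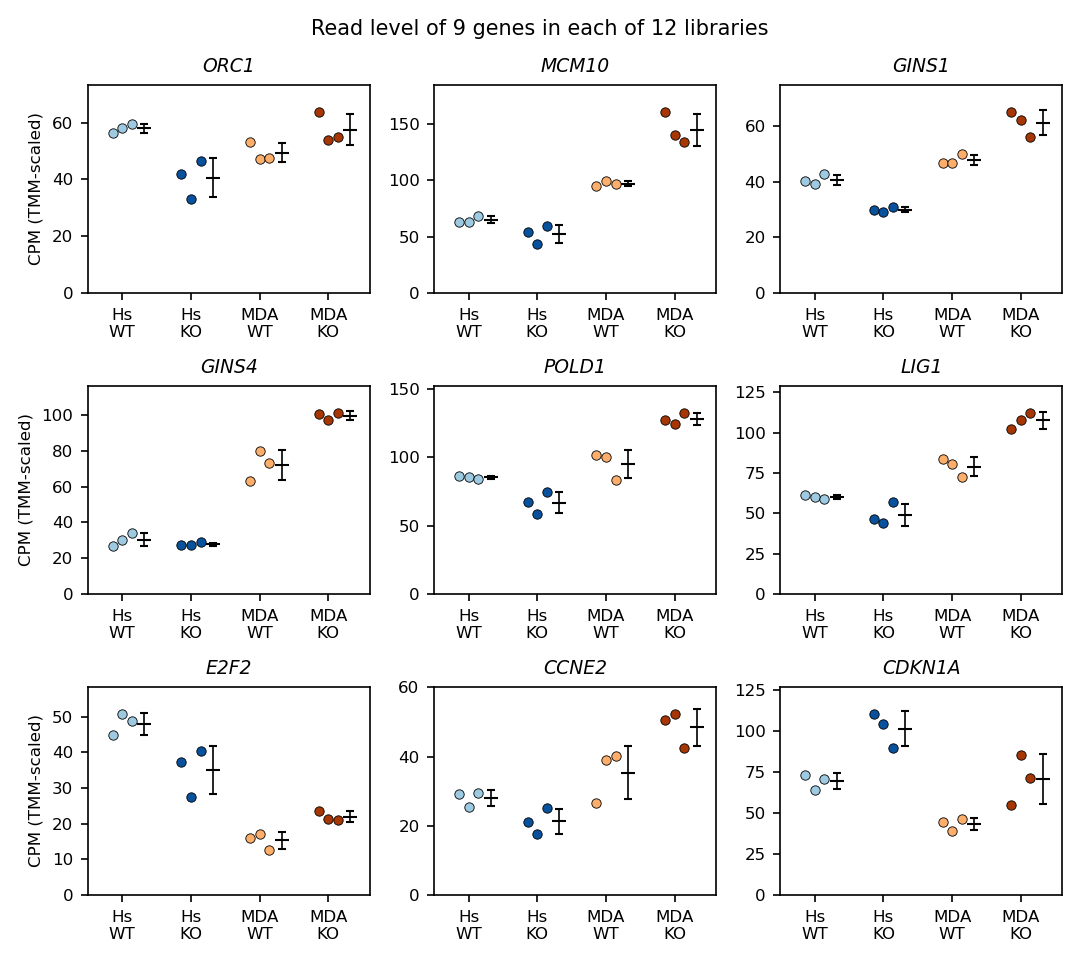
CPM (vertical axes, from 0) of 9 of the genes in each library (points) of the 4 groups, with mean ± SD (n = 3) beside each group. *MCM10*, *GINS1*, *POLD1*, *LIG1*, *E2F2* and *CCNE2* are lower in CD44 KO Hs578T but higher in CD44 KO MDA-MB-231 without overlap in either line, and *CDKN1A* is higher with CD44 KO in either line.

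Whether the effect of CD44 KO differed between the lines was tested directly, as the log2 fold change in Hs578T minus that in MDA-MB-231. The difference was negative for 42 of the 45 genes, with a median of -0.32, against 0.02 over all genes. It passed an adjusted p of 0.01 for 5 genes, all negative, which were *GINS1* (-0.80 ± 0.13, adjusted p = 0.00081), *MCM10* (-0.89 ± 0.15, adjusted p = 0.00163), *POLD1* (-0.78 ± 0.14, adjusted p = 0.00252), *LIG1* (-0.74 ± 0.14, adjusted p = 0.00364) and *E2F2* (-0.98 ± 0.20, adjusted p = 0.00664). Over all genes 4.12% passed, 1.79% negative and 2.33% positive. *GINS1*, *MCM10* and *POLD1* kept their call in all 12 fits that left out a library. *LIG1* lost it when WT replicate 1 or KO replicate 1 or 2 of Hs578T, or KO replicate 2 of MDA-MB-231, was left out (highest adjusted p = 0.0144). *E2F2* kept it only without Hs578T CD44 KO replicate 3 or MDA-MB-231 CD44 WT replicate 1 or 3 (adjusted p otherwise up to 0.0195). A further 14 genes had a negative difference at an unadjusted p under 0.05, as did 12.1% of all genes (24.6% in either direction, 12.5% positive), among them *ORC1* (-0.74 ± 0.17, adjusted p = 0.0108) and *CCNE2* (-0.86 ± 0.23, adjusted p = 0.0247). By sign, 26 genes were lower with CD44 KO in Hs578T but higher with it in MDA-MB-231, 13 were lower in both, 6 were higher in both (*CDC45*, *POLA1*, *POLE*, *RPA3*, *CCND1* and *CDKN1A*), and 0 had the reverse pattern of the 26. The signs of genes near 0 are not firm: that of *RPA1* in Hs578T and those of *MCM2* and *MCM5* in MDA-MB-231 turned with RLE size factors.

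The CD44 WT cells of the lines differed in many of these genes, as in most genes tested. The counts that follow are thus not a result about the 45 genes, and line and sample handling cannot be told apart. Of the 45, 32 differed at an adjusted p of 0.01, 21 higher and 11 lower in MDA-MB-231, against 61.5% of all genes called (29.4% higher, 32.2% lower). The libraries of the lines did not overlap for 38 genes (24 above, 14 below), against 71.8% of all genes (34.2% above, 37.7% below). *CCND1* had the largest difference, at 61.0 ± 2.09 CPM in Hs578T and 611 ± 79.5 CPM in MDA-MB-231 (log2 difference 3.32 ± 0.10, adjusted p = 5.45e-13). *POLE2* followed (13.2 ± 0.810 against 76.4 ± 6.49 CPM, 2.54 ± 0.12), and *FEN1*, *CDC25A*, *GINS4*, *CDC6* and *CDT1* were higher in MDA-MB-231 by 1.43, 1.34, 1.26, 1.22 and 1.08. *E2F2* was lower in MDA-MB-231 (-1.65 ± 0.15, adjusted p = 7.99e-08), and so were all 3 CDK inhibitors, by log2 differences of -0.68 (*CDKN1A*), -0.60 (*CDKN2C*) and -0.43 (*CDKN1B*). Per kb of exon, which allows genes to be compared, *PCNA* was the highest of the 45 in CD44 WT cells of both lines, at 120 CPM per kb in Hs578T and 213 CPM per kb in MDA-MB-231. In Hs578T, *MCM7* (109.6) and *MCM3* (91.4) came next, and *POLE2* was last (4.45). In MDA-MB-231, *MCM3* (156) and *TK1* (136) came next, and *E2F2* was last (2.80).

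**Figure D5:**
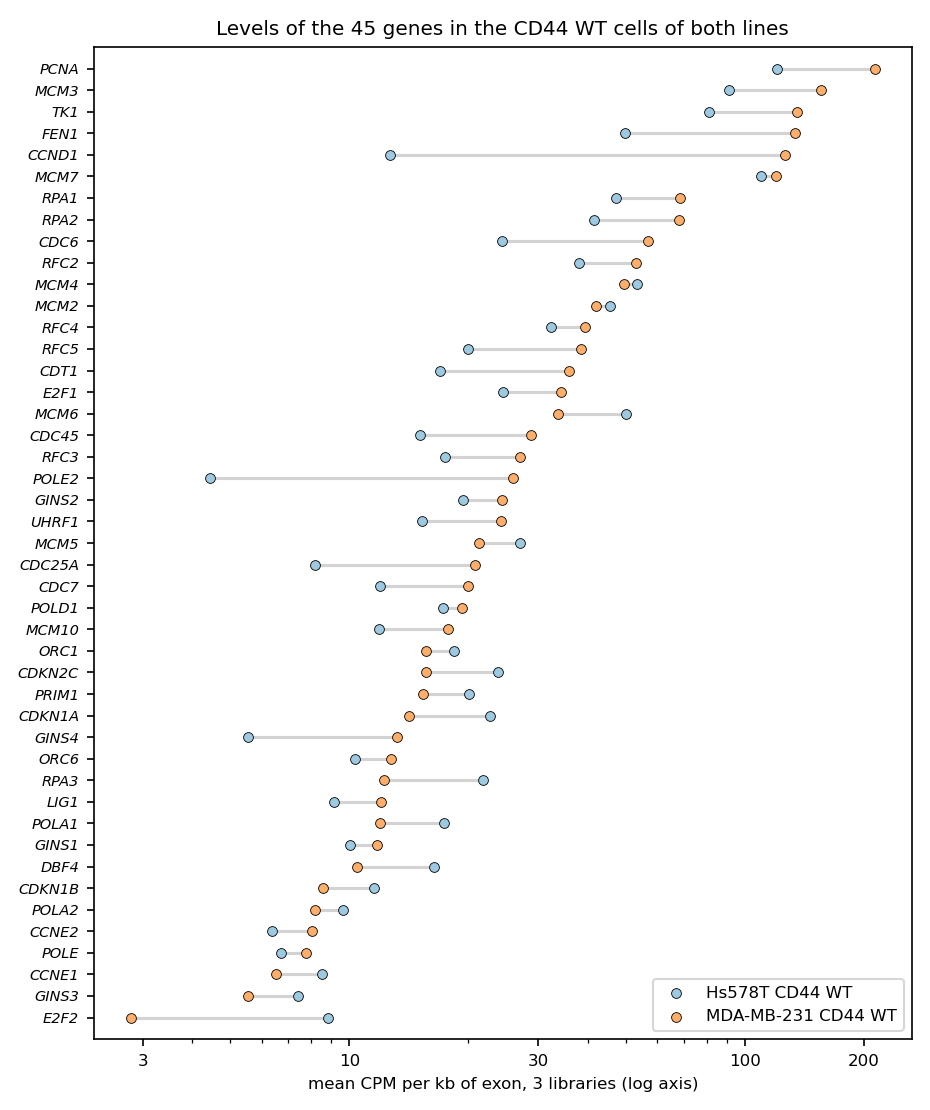
Mean CPM per kb of exon (log axis) of each of the 45 genes in the 3 CD44 WT libraries of Hs578T (blue) and of MDA-MB-231 (orange), ordered by the level in MDA-MB-231. The longest grey lines, which join the levels of a gene, belong to *CCND1* and *POLE2*, higher in MDA-MB-231, and *E2F2* is the lowest gene in MDA-MB-231.

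Genes that work beside the 45 were described in the same way. Of 34 other replication genes, 33 were tested, and 24 were lower in CD44 KO Hs578T (median -0.18). *CHAF1A*, a subunit of the histone chaperone CAF-1, fell by 0.52 on the log2 scale (adjusted p = 0.00715), and *DSCC1*, part of an alternative clamp loader, fell by 0.51 (adjusted p = 0.00322). In MDA-MB-231, 23 of the 33 were higher (median 0.08) and 3 rose, the nuclease-helicase *DNA2* (0.80, adjusted p = 0.000766), the histone chaperone *ASF1B* (0.53, adjusted p = 0.00309) and *TICRR*, which helps to activate the helicase (0.42, adjusted p = 0.00622). Of 14 genes of nucleotide synthesis, the ribonucleotide reductase gene *RRM2* fell in both lines, from 210 ± 34.5 to 140 ± 11.1 CPM in Hs578T (-0.58, adjusted p = 0.00389) and, in MDA-MB-231, from 409 ± 43.3 to 265 ± 25.7 CPM (-0.63, adjusted p = 0.00332), and *RRM1* fell in MDA-MB-231 (-0.49, adjusted p = 0.000664). *RRM2* lies among the first 100 tested genes of chromosome 2, which had medians of -0.38 (Hs578T) and -0.41 (MDA-MB-231) on the log2 scale, and the part of this stretch in its change was not tested.

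Of 30 other regulators of G1/S, 28 were tested. *E2F6*, a repressor, and *TFDP1*, the partner of E2F factors, fell in Hs578T (-0.54, adjusted p = 0.00208, and -0.43, adjusted p = 0.00718). In MDA-MB-231, *CCNA2*, the cyclin of S and G2 phase, and *E2F5* rose (0.45, adjusted p = 0.00374, and 0.75, adjusted p = 0.00283), while the D-type cyclin *CCND2* fell from 7.03 ± 1.91 to 2.74 ± 0.754 CPM (-1.33, adjusted p = 0.00843). Of 40 genes of mitosis and G2/M, 37 were lower in CD44 KO Hs578T (median -0.18) and *CENPA*, the centromeric histone, fell (-0.44, adjusted p = 0.00939). In MDA-MB-231, 23 were higher and 17 lower, with a median of 0.03 against -0.01 over all genes. There 4 rose, *CDK1*, *KIF23*, *NDC80* and *MYBL2*, by 0.60, 0.53, 0.46 and 0.48. At an unadjusted p under 0.05, 17 of the 40 were lower and 0 higher in Hs578T, against 14.3% and 13.1% of all genes. In MDA-MB-231, 12 were higher and 1 lower, against 10.6% and 12.9% of all genes. *MKI67*, a marker of cycling cells named outside the rule for called genes, was called in neither line (-0.02 and 0.10). Its values do not stand for the list. Of 22 target genes of p53 other than *CDKN1A*, 13 were higher and 9 lower in CD44 KO Hs578T (median 0.09), and 11 were higher and 11 lower in MDA-MB-231 (median 0.02). *GADD45A* (0.55, adjusted p = 0.00776) and the death receptor gene *FAS* (0.90, adjusted p = 0.00225) rose in Hs578T, while their log2 fold changes in MDA-MB-231 were -0.06 and 0.35.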

How the data were processed

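RNA was sequenced as stranded paired-end reads of 50 bp. The authors aligned them with HISAT2 2.1.0 to GRCh38 and counted them per gene with featureCounts 1.6.2 on GENCODE version 28, for pairs with both ends aligned at a mapping quality of at least 10. The deposited counts are whole numbers without normalization, and the table also gives each exonic length.

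Testing was limited to genes above 1 CPM in 2 libraries or more whose exons span 300 nt or more, and used edgeR 4.0.16 (R 4.3.3): TMM factors, the quasi-likelihood test, 4 group means and no other term, with all 12 libraries sharing 1 estimate of the spread. A call meant p of 0.01 or less after Benjamini-Hochberg adjustment over all genes tested, and standard errors were taken from the F statistic. The script was tested on simulated data. CPM and CPM per kb use TMM library sizes. Alternatives were DESeq2 1.42.0, other scalings, filters and thresholds, replicate blocks and leaving out each library. The 45 genes, the other lists and tests were chosen with earlier results of these data known. All 45 genes were named, with values of every library for those called and 8 others fixed by symbol (CCNE2, CCND1, CDKN1A, CDKN1B, CDKN2C, E2F1, MCM2, PCNA). Up to 6 called genes were named per other list and line.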

Additional observations from a re-analysis of the deposited data

Results flagged for a closer look

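The effect of CD44 KO was tested for a difference between the lines, as the log2 fold change in Hs578T minus that in MDA-MB-231 (edgeR quasi-likelihood test, Benjamini-Hochberg adjustment). It differed for 5 of the 45 genes, against 4.12% of all genes: *E2F2* (-0.98), *MCM10* (-0.89), *GINS1* (-0.80), *POLD1* (-0.78) and *LIG1* (-0.74). Of the 12 fits that left out a library, 4 lost the call of *LIG1* and 9 that of *E2F2*, and both lost it with the replicate number as a block. Each was lower in all 3 CD44 KO libraries of Hs578T than in CD44 WT and higher in all 3 of MDA-MB-231. Since the genes were picked by this difference in the same libraries, that order is no further support. Of all genes, 18.6% lay below without overlap in Hs578T and 11.8% above in MDA-MB-231.

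Among the other replication and G1/S genes named above, the difference was -1.10 for *E2F5* (adjusted p = 0.00199), -1.08 for *DNA2* (adjusted p = 0.00143), -0.87 for *ASF1B* (adjusted p = 0.00107), -0.61 for *TICRR* (adjusted p = 0.00617) and -0.55 for *CCNA2* (adjusted p = 0.0098). Among the mitotic genes, it was -0.83 for *MYBL2*, -0.70 for *CDK1*, -0.61 for *NDC80* and -0.58 for *KIF23*, with adjusted p-values between 0.0015 and 0.00441. It was also -0.59 for *NUF2*, which was called in neither line and is named after its values were seen.

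*CD44* itself fell further in Hs578T (difference -0.81, adjusted p = 0.00198). Of the cell type markers, the difference was 5.66 for *PTPRC* (adjusted p = 0.00116), 3.04 for *KDR* (adjusted p = 0.00882) and -1.30 for the epithelial gene *CLDN4* (adjusted p = 0.00781). *PTPRC* was below 1 CPM on average in 3 of the 4 groups and 3.78 CPM in Hs578T CD44 KO.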

How the results depend on the processing

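The median log2 fold change of the 45 genes kept its sign in each line under every setting run, and counts of called genes moved. With DESeq2, 7 genes were called in Hs578T, 7 in MDA-MB-231 and 10 for the difference between the lines, against 9.81%, 7.19% and 7.59% of all genes. Beside the genes called by edgeR these were *CDKN1A*, *CDKN2C*, *MCM4*, *POLD1* and *RFC3* in Hs578T and *CCND1*, *GINS1* and *POLD1* in MDA-MB-231. Without a filter on low counts the calls were 4, 8 and 9 (6.3%, 4.33% and 4.33% of all genes), and at an adjusted p of 0.05 they were 12, 8 and 11 (14.2%, 9.59% and 10.5%). With each line filtered and fitted alone, 5 were called in Hs578T and 1 in MDA-MB-231, against 10.4% and 2.31% of all genes. Leaving out each library in turn gave 0 to 5 in Hs578T, 1 to 4 in MDA-MB-231 and 3 to 6 for the difference. The shares of all genes called in these fits ran from 3.84% to 10.7%, 2.25% to 4.83% and 2.52% to 5.1%. DESeq2 tests the same counts with another model, and the cause of its higher counts was not tested.

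The replicate numbers did not pair the samples: deviations of same-numbered libraries correlated at -0.12 to 0.16 over 15 pairs. Libraries of the same run of 4 consecutive numbers correlated at -0.0011 to 0.16 over 18 pairs, and those of different runs at -0.17 to 0.12. What the runs stand for is not stated. Within runs, the 45 genes summed to 3675, 4400 and 4143 CPM in CD44 KO beside 4413, 4624 and 4894 CPM in CD44 WT Hs578T. In MDA-MB-231 they summed to 6965, 6680 and 7307 CPM in CD44 KO beside 6299, 6393 and 6788 CPM in CD44 WT. With the number as a replicate block in 11 libraries, 3 genes were called in Hs578T, 1 in MDA-MB-231 (*MCM10*) and 3 for the difference. Of all genes, 6.79%, 2.75% and 2.97% were called with this block. With blocks made of runs of 4 consecutive numbers in the library names, a replicate block of all 12 libraries, 5, 5 and 7 were called. The shares over all genes were then 8.24%, 5.2% and 4.69%.

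*MCM2* in MDA-MB-231 (-0.00 ± 0.10) changed sign to 0.0119 with DESeq2, 0.0118 with RLE size factors, 0.0136 with library size alone, 0.020 without a filter, 0.0130 with the line fitted alone, and 0.00284 and 0.000685 with the blocks by number and by run, and spanned -0.0341 to 0.0479 when a library was left out. With 3 libraries a group and a common biological coefficient of variation of 0.117, each of the 45 genes had at least 109 counts in every library, and what depth adds to the spread of the lowest of them was not tested.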
